A study of Arabidopsis thaliana with 6 samples.

Results

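The nuclear photosystem and antenna genes are the loci whose gene symbols begin with LHCA, LHCB, CAB, PSAD to PSAP or PSBO to PSBZ, the naming used for chlorophyll-binding antenna proteins and for the photosystem subunits encoded in the nucleus. This rule, which uses names and no measured value, found 39 loci among 32921 named rows of the deposited count tables, and no symbol stood on more than 1 row. RNA came from whole wild-type seedlings of the thale cress Arabidopsis thaliana. They grew on sealed agar plates that foil kept dark, in a chamber shielded from outside sound. Speakers played a city traffic recording (75 dB on average) in the traffic noise group and white noise (10 dB on average) in the control group for 48 h, and 3 libraries were made from each. The kind of sound and its level differed together, so their effects cannot be told apart.

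Photosystems I and II are pigment-protein complexes of the thylakoid membrane. The core of each carries out charge separation and is surrounded by chlorophyll a/b-binding antenna proteins that feed it light energy. Core subunits that bind the reaction-centre pigments are encoded in the plastid genome, whereas the antenna proteins, the extrinsic subunits that protect the oxygen-evolving manganese cluster and many small subunits are encoded in the nucleus and imported. Transcription of antenna genes is known to be low in darkness and to be raised by light through the phytochromes, by the circadian clock and by the GLK transcription factors, and it falls when plastids are damaged.

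Library totals lay between 19782106 and 20605708 counts in traffic noise and between 17540009 and 20780363 in control. Control replicate 3 had counts on 16128 named rows, against 20026 to 20287 in the other 5 libraries, and control replicate 1 drew 16.1% of its counts from organelle loci, against 10.1% to 11.7% in the others. Whether replicates came from separate plates is not said in the labels, so every p-value rests on a spread that may be technical. Levels are given as CPM, counts relative to library size after scaling by TMM factors. The kit reads the 3′ ends of transcripts, so a level is a number of transcript ends and does not scale with transcript length. In whole seedlings, fewer cells of a type and less RNA per cell cannot be told apart. Transcripts of the shoot epidermis (ATML1, PDF1), of the vasculature (SUC2) and of the root (CASP1, and PYK10, which made up most of the summed root level) were present in both groups. The 15 root markers found summed to 8386 to 9194 CPM in traffic noise and 9346 to 10237 CPM in control, with IRT1 at 0 throughout. Of 9 tested root markers, log2 fold changes of traffic noise over control were positive for 5 and negative for 4 (median 0.05). They were positive for 2 and negative for 6 of 8 vasculature markers (median -0.40). For 5 shoot epidermis and guard cell markers the numbers were 2 and 3 (median -0.17). Of all tested rows, 52.5% were positive. Of 14 seed storage and maturation markers, SESA2, SESA4 and PER1 were at 0 in all libraries and 2 passed the filter on low counts.

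Transcripts of the photosystem and antenna genes were plentiful, and no gene of the group passed the main test for a difference between the sound treatments. Their levels varied widely between libraries of the same group, most of all in control. The gene with the smallest p was CAB1, a major antenna gene, which lay at 1117 to 1316 CPM in traffic noise and 366 to 884 CPM in control. Control replicate 3 held the highest level of most of the genes and control replicate 1 the lowest.

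Of the 39 genes, 38 passed edgeR's filter on low counts. The exception was PSBP-2, a second gene for an extrinsic photosystem II protein, which had 21 counts in traffic noise replicate 2 and 0 in the other 5 libraries. The tested genes had mean levels of 8.20 to 1076 CPM over the 6 libraries, with a median of 263 CPM, and 36 of 38 were at or above the median tested row, which was 9.71 CPM. PSBR ranked 105th and CAB1 120th among all 32921 named rows. Together the 39 genes took 0.991%, 1.22% and 1.61% of all counts in traffic noise replicates 1, 2 and 3, against 0.745%, 0.961% and 2.03% in control replicates 1, 2 and 3. The 95% Wilson intervals were no wider than 2.020% to 2.033%, the interval of control replicate 3, and cover counting error only. The means were 1.27% ± 0.310 in traffic noise and 1.24% ± 0.686 in control (SD, n = 3 each), a difference well inside either spread.

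With edgeR's quasi-likelihood test and p-values adjusted by Benjamini-Hochberg across 19112 rows, 0 of 38 genes had an adjusted p under 0.05, beside 0.0105% of all tested rows. At an unadjusted p under 0.05, 3 genes (CAB1, PSAD-2 and LHCB5) were higher in traffic noise, beside 3.48% of all rows, and 0 were lower, beside 3.98%. Log2 fold changes of traffic noise over control were positive for 18 of 38 genes, beside 52.5% of all rows, with a median of -0.04 against 0.05 for all rows. All 3 traffic noise libraries lay above all 3 control libraries for 3 genes (CAB1, LHCB5 and PSBO2), beside 8.99% of all rows, and below them for 0, beside 7.39%. DESeq2 gave an adjusted p to 35 of the genes and called 1 of them, CAB1, beside 4.53% of the 4659 rows given one.

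The fold changes depended on single libraries. Without control replicate 3, all 38 log2 fold changes were positive, with a median of 0.52 beside 0.01 for all rows. In that comparison 10 genes had an unadjusted p under 0.05 and were higher in traffic noise, beside 4.56% of all rows, 0 were lower, beside 3.95%, and 50.6% of all rows had a positive fold change. These 10 were the antenna genes CAB1, LHCB4.2, LHCB5, LHCB6, LHCA2, LHCA3 and LHCA4 and the subunit genes PSAD-2, PSAE-2 and PSBQ-2. None passed after adjustment, and the smallest adjusted p in edgeR was 0.239, for LHCA2. Control replicate 3 was the highest control library for 32 of the 38 genes, beside 32.1% of all rows. Leaving it out therefore lowers the control mean of those genes, so these counts are no independent support for a difference. Without control replicate 1, 10 of 38 fold changes were positive, beside 55.5% of all rows, with a median of -0.27 against 0.10 for all rows. CAB1 alone then had an unadjusted p under 0.05 in the higher direction, beside 3.23% of all rows, and 0 genes did in the lower one, beside 2.96%. Control replicate 1 was the lowest control library for 34 of the 38 genes, beside 25.1% of all rows, so its removal raises their control mean. Without traffic noise replicate 3 the fold change was positive for 11 of 38 genes and for 10146 of 19838 rows, with medians of -0.16 and 0.02. Without traffic noise replicate 1 it was positive for 23 of 38 genes and for 10272 of 19885 rows, with medians of 0.17 and 0.03. Without traffic noise replicate 2 it was positive for 18 of 38 genes and for 10489 of 19907 rows, with medians of -0.02 and 0.05. Without control replicate 2 it was positive for 14 of 38 genes and for 10771 of 19871 rows, with medians of -0.22 and 0.10.

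**Figure D1:**
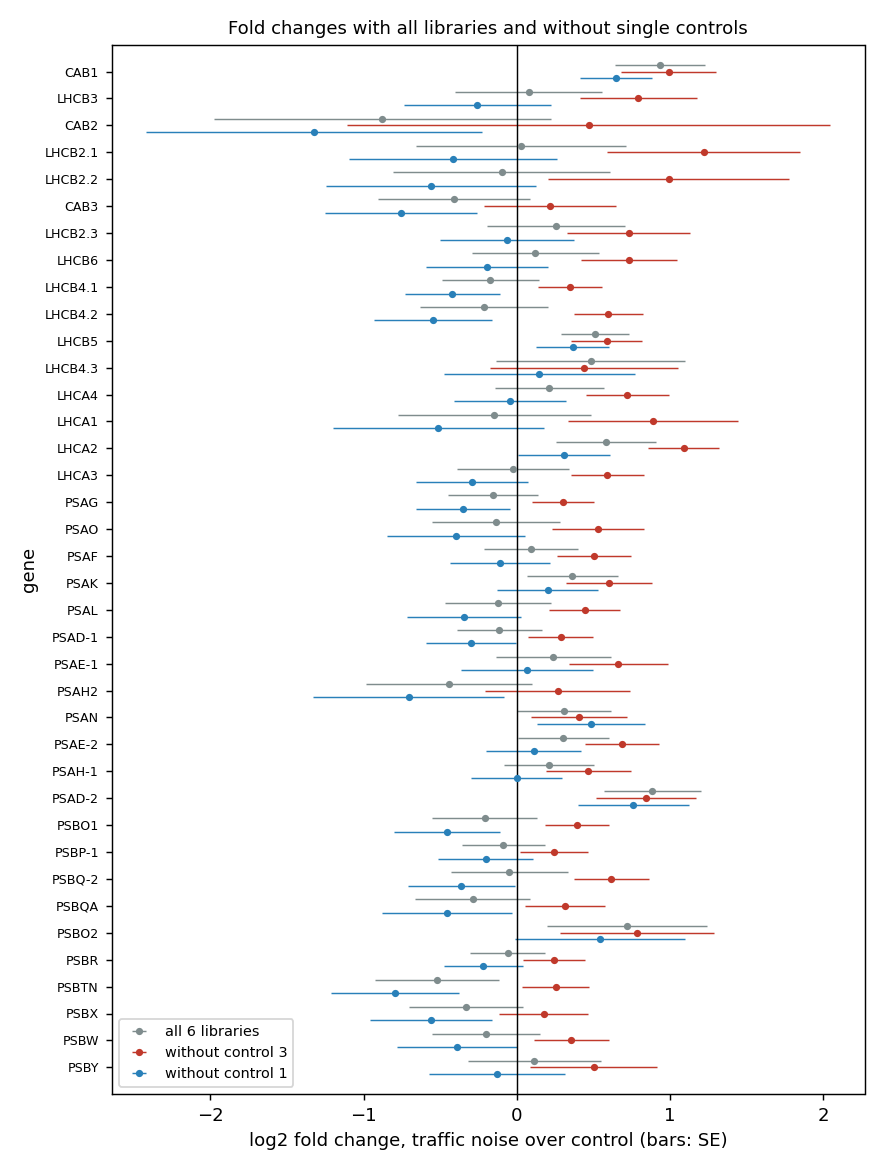
Log2 fold change of traffic noise over control for the 38 tested genes (horizontal axis, bars are SE), by role from the major photosystem II antenna at the top to the small photosystem II subunits at the bottom, with all 6 libraries (grey), without control replicate 3 (red) and without control replicate 1 (blue). All 38 red points lie above 0, and 10 of 38 blue points do.

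Control replicate 3 was the highest of the 6 libraries for 28 of 38 genes (73.7%, beside 24.1% of all tested rows), and control replicate 1 was the lowest for 26 (68.4%, beside 13.7%). Within the traffic noise group, replicate 3 was highest for 25 genes (65.8%, beside 35.2% of all rows) and replicate 1 lowest for 30 (78.9%, beside 34.5%). The median deviation from a gene's own mean, on a log2 scale of CPM plus 0.5, was -0.30, 0.10 and 0.34 in traffic noise replicates 1, 2 and 3, and -0.60, -0.28 and 0.79 in control replicates 1, 2 and 3. Control replicate 3 exceeded the mean of the other control libraries for 36 of 38 genes, by a median of 2.26 times (0.911 for PSAD-2 to 5.63 for CAB2), whereas over all tested rows that median was 0.789. The library high in these transcripts was thus the one with fewest rows detected, and the library lowest in them had the largest plastid-encoded share of counts, 12.4% against 8.15% to 10.0% in the others. Yet the 20 plastid photosystem genes described below summed to 1639 CPM in control replicate 1, against 1672 to 2963 CPM in the others. The part of these features in the pattern was not tested.

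**Figure D2:**
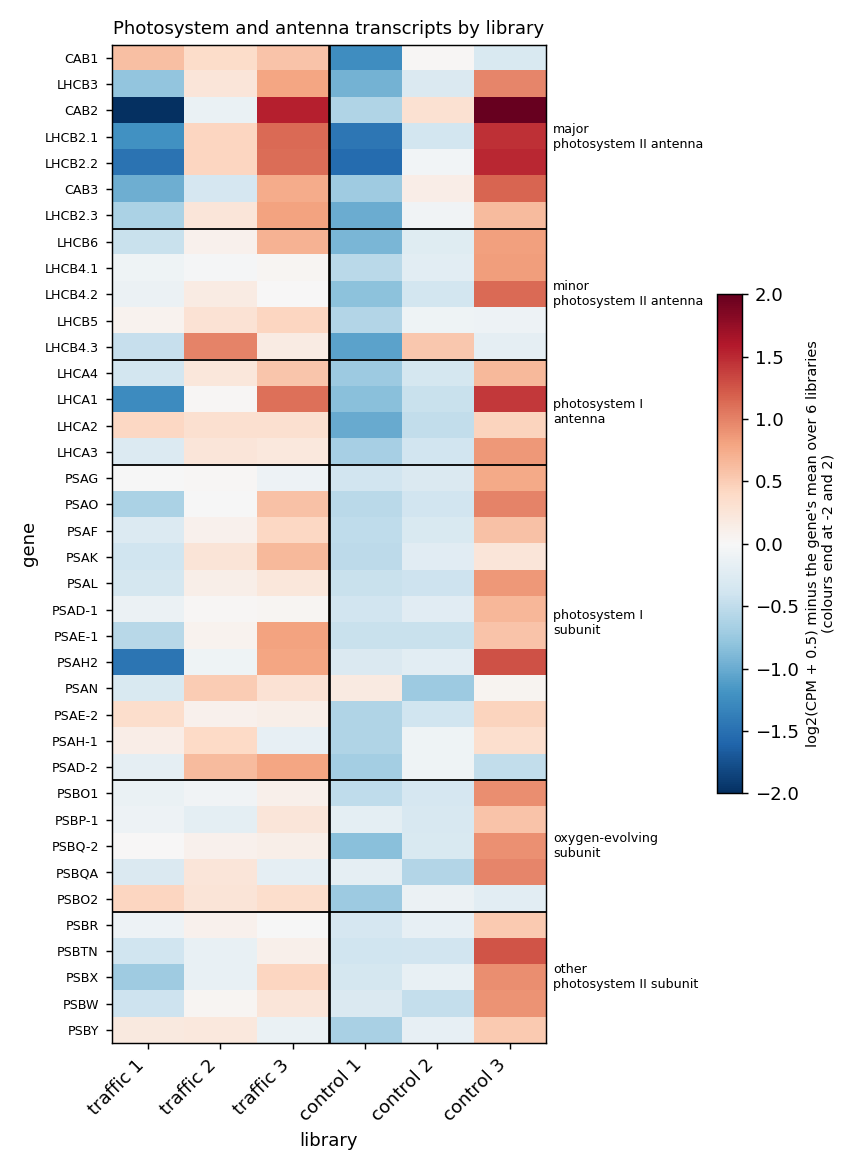
Level of each of the 38 tested genes (rows, by role and then by mean level) in the 6 libraries (columns), as log2(CPM + 0.5) minus the gene's mean over all libraries. The column of control replicate 3 is the highest in 28 rows and that of control replicate 1 the lowest in 26.

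The spread between replicates also differed between roles. The SD of log2 level over the 3 libraries had a median of 0.32 in traffic noise and 0.74 in control. Over all tested rows it was 0.42 in traffic noise and 0.70 in control, and over the 10292 rows within the range of these genes' levels it was 0.30 in traffic noise and 0.48 in control. The SD was wider in control for 33 of 38 genes (86.8%, beside 70.6% of all tested rows). In traffic noise the 5 tested oxygen-evolving genes had the smallest median SD of the role classes, at 0.12, and the 7 major antenna genes the largest, at 0.87. In control the same medians were 0.78 and 0.97. By these medians the major antenna genes varied widely in both groups, and the oxygen-evolving genes in control. CAB1 was an exception among the major antenna genes, with an SD of 0.13 in traffic noise.

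The major antenna of photosystem II is a trimer of LHCB1, LHCB2 and LHCB3 proteins. CAB1, CAB2 and CAB3 encode LHCB1 and lie side by side on chromosome 1, CAB1 at chr1:10477885-10479114 on the plus strand, CAB2 at chr1:10474656-10475969 and CAB3 at chr1:10472280-10473502 on the minus strand, each as a single exon in the RefSeq annotation of TAIR10.1. CAB1 and CAB2 are thus divergently transcribed. Their promoters are shown because these neighbouring genes had unlike levels across the libraries. Each sequence is the 250 bases before the annotated transcript start, 5′ to 3′ on the gene's own strand, at chr1:10477635-10477884 (plus), chr1:10475970-10476219 (minus) and chr1:10473503-10473752 (minus). Capitals mark the CCAATC motif in CAB1 and the AAAAATCT motif in CAB2, which begin 91 and 78 bases before the start, and CAB3 held none of the motifs searched.
CAB1: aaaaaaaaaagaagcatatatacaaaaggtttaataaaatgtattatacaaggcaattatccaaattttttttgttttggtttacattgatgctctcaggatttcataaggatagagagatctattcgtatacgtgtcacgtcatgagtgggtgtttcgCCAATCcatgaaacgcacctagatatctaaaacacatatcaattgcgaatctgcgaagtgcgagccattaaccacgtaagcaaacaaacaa
CAB2: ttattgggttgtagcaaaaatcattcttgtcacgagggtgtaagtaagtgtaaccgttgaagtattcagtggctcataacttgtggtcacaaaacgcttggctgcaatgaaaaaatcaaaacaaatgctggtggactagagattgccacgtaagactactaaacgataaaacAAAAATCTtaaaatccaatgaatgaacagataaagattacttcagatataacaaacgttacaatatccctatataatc
CAB3: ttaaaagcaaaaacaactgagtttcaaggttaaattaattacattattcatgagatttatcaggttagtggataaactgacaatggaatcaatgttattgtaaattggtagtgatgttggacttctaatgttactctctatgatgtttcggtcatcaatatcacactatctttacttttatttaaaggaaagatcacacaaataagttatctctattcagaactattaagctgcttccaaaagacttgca
Aligned with gaps allowed, the promoters were 50.2% identical between CAB1 and CAB2, 53.95% between CAB1 and CAB3 and 52.6% between CAB2 and CAB3. No unrelated promoters were aligned for comparison, so these values do not show whether the sequences are related.

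CAB1 had 1316, 1117 and 1293 CPM in traffic noise replicates 1, 2 and 3, against 366, 884 and 700.5 CPM in control replicates 1, 2 and 3. Every traffic noise library was above every control library. The log2 fold change was 0.93 ± 0.29 (SE) with an unadjusted p of 0.00903 and an adjusted p of 0.493 in edgeR. DESeq2 gave an adjusted p of 0.0472, and the other settings tried gave 0.0524 to 1.0, with the fold change between 0.65 and 1.22. CAB1 overlaps NRPA2 on the opposite strand, but that locus had under 1% of its counts (0.921%).

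CAB2 had 22.0, 239.5 and 779 CPM in traffic noise, against 174, 327 and 1412 CPM in control, for replicates 1, 2 and 3. The groups overlapped, and the highest traffic noise library was 35.4 times the lowest. The log2 fold change was -0.88 ± 1.10 with an edgeR adjusted p of 0.961. CAB3 had 49.8, 78.2 and 165 CPM in traffic noise and 59.9, 108 and 221 CPM in control, with a log2 fold change of -0.41 ± 0.50 and an adjusted p of 0.958. Like CAB2, it was lowest in traffic noise replicate 1 and highest in control replicate 3, whereas CAB1 was highest in traffic noise replicate 1.

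The balance among the 3 CAB genes therefore shifted from library to library. CAB1 made up 94.8%, 77.9% and 57.8% of their summed counts in traffic noise replicates 1, 2 and 3, against 61.0%, 67.0% and 30.0% in control replicates 1, 2 and 3. The share of CAB2 was 1.59%, 16.7% and 34.8% in traffic noise and 29.0%, 24.8% and 60.5% in control. CAB1 had 59.7, 4.66 and 1.66 times the counts of CAB2 in traffic noise and 2.103, 2.70 and 0.496 times in control. The share of CAB3 was 3.58%, 5.45% and 7.35% in traffic noise and 9.98%, 8.17% and 9.47% in control. This share was lower in every traffic noise library, but the level of CAB3 itself overlapped between the groups. The share is of a sum that includes CAB1, and no test was run on it. The 3 genes summed to 1388, 1435 and 2237 CPM in traffic noise and to 599.9, 1319 and 2334 CPM in control. At the transcript ends that the kit reads, the last 200 annotated bases of these genes were 50.9% to 54.5% identical and the longest run shared by any pair was 20 bases. How reads with several matches were assigned is not given in the sources used here.

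**Figure D3:**
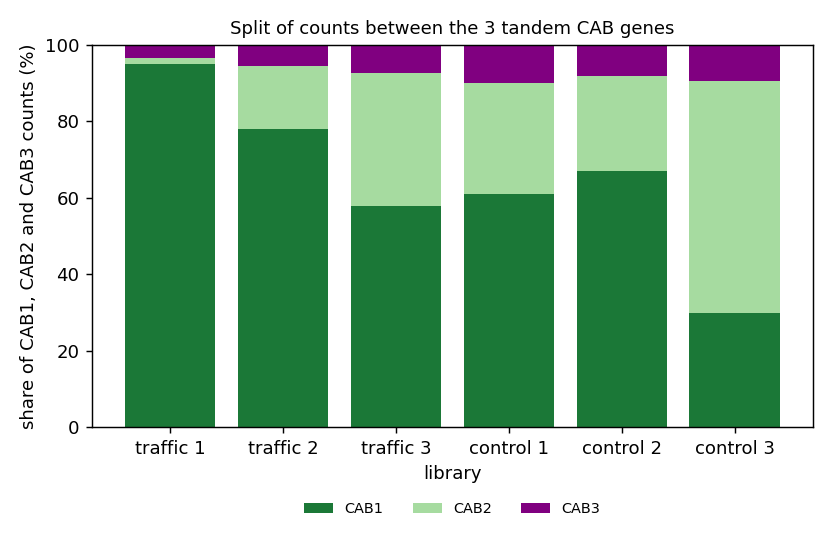
Share of the summed counts of CAB1, CAB2 and CAB3 taken by each gene (vertical axis, percent) in the 6 libraries. CAB1 takes 94.8% in traffic noise replicate 1 and 30.0% in control replicate 3, and CAB2 takes 1.59% and 60.5% in the same libraries.

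The other LHCB1 genes, LHB1B1 and LHB1B2, fall outside the naming rule. LHB1B1 had 2.81, 166 and 444 CPM in traffic noise and 52.2, 83.0 and 252 CPM in control. It shared with CAB2 a very low level in traffic noise replicate 1. LHB1B2 had 427, 1018 and 1566 CPM in traffic noise and 428, 580 and 1743 CPM in control, above CAB1 in traffic noise replicate 3 and in control replicates 1 and 3 and below it in the other libraries. All 5 LHCB1 genes summed to 1818, 2619 and 4248 CPM in traffic noise, against 1080, 1982 and 4329 CPM in control, and the groups overlapped.

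LHCB2.1 had 74.6, 234 and 382 CPM in traffic noise and 63.5, 134 and 480.2 CPM in control. LHCB2.2 had 42.0, 159 and 256 CPM in traffic noise and 39.9, 113 and 336 CPM in control. Both genes ranked the 6 libraries alike. They encode the antenna protein phosphorylated in state transitions, and LHCB2.1 made up 52.0% to 53.7% of the counts of LHCB2.1, LHCB2.2 and LHCB2.3 in traffic noise and 46.8% to 54.5% in control. LHCB3, whose product occurs in trimers further from the core, had 294, 600.0 and 881 CPM in traffic noise and 265, 418 and 998 CPM in control. The log2 fold changes of these and of LHCB2.3 lay between -0.10 and 0.26, with adjusted p of 0.973 or more in edgeR. Overlapping loci had counts close to those of some of these genes. AT3G27700, on the other strand, had 98.3% as many counts as LHCB2.3, and ATM2 had 38.2% as many as LHCB3. The reads of such pairs cannot be told apart, since no source used here says whether counting took strand into account.

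The minor antenna proteins CP29, CP26 and CP24, encoded by LHCB4, LHCB5 and LHCB6 genes, connect the trimers to the photosystem II core. LHCB5 had 276, 319 and 352 CPM in traffic noise and 174.5, 246 and 244 CPM in control, without overlap. The means were 316 ± 38.6 CPM in traffic noise and 222 ± 40.85 CPM in control (SD, n = 3 each), and the log2 fold change was 0.51 ± 0.22, with an unadjusted p of 0.0431 and an adjusted p of 0.656 in edgeR. LHCB6, the most abundant of the class, had 362, 524 and 793 CPM in traffic noise and 261, 414 and 868 CPM in control, with a log2 fold change of 0.12 ± 0.41 and an adjusted p of 0.987. Its direction changed without traffic noise replicate 3 (-0.21), control replicate 1 (-0.19) or control replicate 2 (-0.01).

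LHCB4.1 had 470.0, 488 and 511 CPM in traffic noise and 342.5, 428 and 885 CPM in control. LHCB4.2 had 394, 483.5 and 431 CPM in traffic noise and 243, 334 and 943 CPM in control. Each was narrow in traffic noise and wide in control, with control libraries on both sides of all traffic noise libraries. LHCB4.3 was far lower, at 5.87 to 17.0 CPM in traffic noise and 3.69 to 12.1 CPM in control, and made up at most 1.71% of the summed LHCB4 counts in any library.

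The 4 LHCA genes encode the crescent of antenna proteins on a side of photosystem I. LHCA2 had 383, 359 and 357 CPM in traffic noise and 141.5, 203 and 389 CPM in control. Replicates of traffic noise differed by a factor of 1.07 and those of control by 2.75, and control replicate 3 was above every traffic noise library. The log2 fold change was 0.58 ± 0.33 (adjusted p = 0.780 in edgeR). Without control replicate 3 it was 1.09 ± 0.23 (adjusted p = 0.239), the smallest among all settings tried, the others giving 0.376 to 1.0.

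LHCA4, the most abundant of the 4, had 442, 666 and 837 CPM in traffic noise and 342, 444 and 892 CPM in control, with a log2 fold change of 0.21 ± 0.36 and an adjusted p of 0.972. Its direction changed without control replicate 1 (-0.04) or traffic noise replicate 3 (-0.01). LHCA1 had 103, 254 and 534 CPM in traffic noise and 139, 182 and 665 CPM in control, and the groups overlapped. LHCA3 had 175, 249.5 and 244 CPM in traffic noise and 134, 162 and 384 CPM in control. Neither differed between groups by more than its SE.

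Among the 12 photosystem I subunit genes, 7 had a positive log2 fold change and 5 a negative one, with a median of 0.15. PSAD and PSAE form the stromal ridge where ferredoxin docks, and each is encoded by a gene pair. PSAD-2 had 39.8, 70.5 and 78.5 CPM in traffic noise and 28.1, 42.2 and 32.0 CPM in control. The groups overlapped by a single pair of libraries. The log2 fold change was 0.88 ± 0.32, with an unadjusted p of 0.0184 and an adjusted p of 0.545 in edgeR, and leaving out single libraries gave 0.70 to 1.13. Its partner PSAD-1 had 231.5, 253 and 256 CPM in traffic noise and 192, 213 and 396 CPM in control, with a log2 fold change of -0.11 ± 0.28. PSAD-2 accounted for 14.7%, 21.8% and 23.4% of the pair's counts in traffic noise and 12.7%, 16.5% and 7.48% in control. The neighbouring AT1G03140 overlaps PSAD-2 by 2 bases on the same strand and had 143% as many counts.

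PSAG, a membrane subunit beside the LHCA proteins and the most abundant of this class, had 667, 684 and 623 CPM in traffic noise and 515, 552 and 1130 CPM in control. Control replicate 3 was far above, and the other control libraries below, all traffic noise libraries. Its log2 fold change was -0.15 ± 0.29 (adjusted p = 0.976), and without control replicate 3 it was 0.30. PSAK, its counterpart on the other flank, had 245, 385 and 503 CPM in traffic noise and 223.5, 274 and 383 CPM in control. PSAF, which binds plastocyanin on the lumenal side, had 475, 609.8 and 771 CPM in traffic noise and 405, 468 and 867 CPM in control. PSAL and PSAO, which lie where the major antenna docks in state transitions, had log2 fold changes of -0.12 ± 0.35 and -0.13 ± 0.42.

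PSAE-1 had 134, 208 and 346 CPM in traffic noise and 144, 145.5 and 293 CPM in control. PSAE-2 had 96.3, 80.4 and 82.5 CPM in traffic noise and 49.7, 57.6 and 103 CPM in control, and made up 41.8%, 27.9% and 19.2% of the pair in traffic noise and 25.6%, 28.4% and 25.9% in control. PSAH2 and PSAH-1, genes for a subunit at the docking site of the major antenna, also varied in balance. PSAH2 made up 41.6%, 60.4% and 80.7% of that pair in traffic noise and 72.8%, 66.3% and 80.5% in control. For both PSAH genes an overlapping locus on the other strand had a near-equal count, ROPGEF11 with 95.2% of the counts of PSAH2 and ROPGEF13 with 98.5% of those of PSAH-1, so that the source of the reads is uncertain. The same holds in part for PSAE-2, with 55.2% as many counts on AT2G20270, and for PSAN, which encodes a lumenal subunit, with 34.7% on AT5G64030.

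The extrinsic proteins PSBO, PSBP and PSBQ cover the manganese cluster of photosystem II on the lumenal side. PSBO1, the most abundant of their genes, had 487, 510.2 and 575 CPM in traffic noise and 377, 422.5 and 1017 CPM in control. The traffic noise libraries lay close together between the lower control libraries and control replicate 3. The log2 fold change was -0.21 ± 0.34 (adjusted p = 0.972 in edgeR), and it was 0.39 without control replicate 3. PSBO2 had 10.85, 9.56 and 10.2 CPM in traffic noise and 4.57, 7.27 and 6.75 CPM in control, without overlap. Its log2 fold change was 0.72 ± 0.52 with an unadjusted p of 0.197 and an adjusted p of 0.883. PSBO2 contributed 2.18%, 1.84% and 1.75% of the counts of the pair in traffic noise and 1.20%, 1.69% and 0.659% in control.

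PSBP-1 had 211, 198 and 269 CPM in traffic noise and 199.6, 183 and 338 CPM in control. PSBQA and PSBQ-2 had log2 fold changes of -0.29 ± 0.38 and -0.05 ± 0.38. PSBQ-2 was close to constant in traffic noise, at 104 to 112 CPM, and ranged over 58.0 to 196 CPM in control. The extrinsic genes were thus the steadiest of the classes under traffic noise, and 4 of the 5 peaked in control replicate 3.

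The remaining genes encode small photosystem II proteins. PSBR, the most abundant of the 38 genes, had 986, 1121 and 1054 CPM in traffic noise and 839.7, 941 and 1512 CPM in control, with a log2 fold change of -0.06 ± 0.24 and an adjusted p of 0.988 in edgeR. PSBTN, a lumenal protein and the class member with the smallest p, had 473, 563 and 669 CPM in traffic noise and 475, 479 and 1492 CPM in control. Only control replicate 3 stood apart, and the log2 fold change was -0.52 ± 0.41 (adjusted p = 0.908). Without that library PSBR stood at 0.24 and PSBTN at 0.25. All 5 genes of the class, PSBW, PSBX and PSBY included, were highest in control replicate 3.

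**Figure D4:**
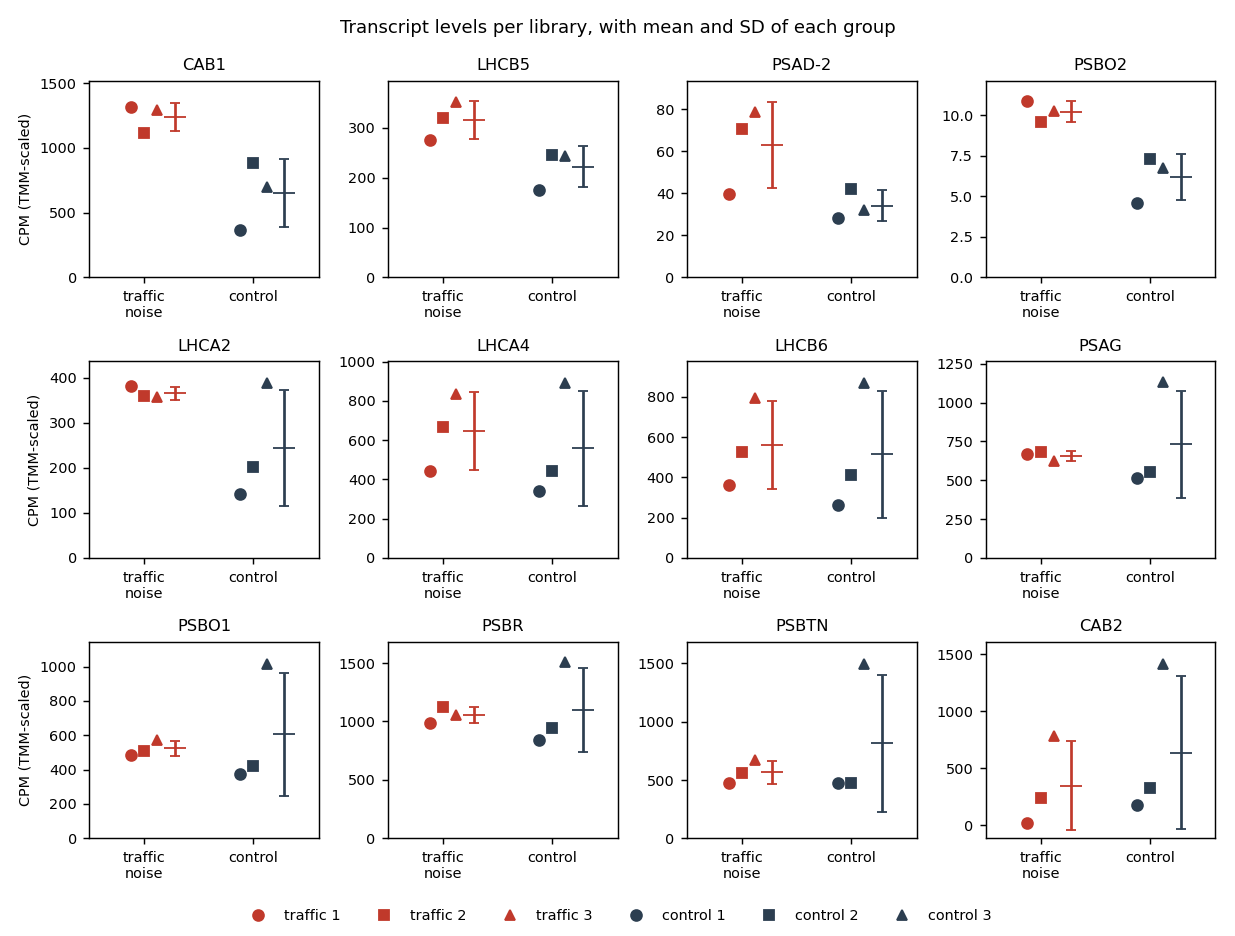
TMM-scaled CPM (vertical axis, from 0 except where an error bar passes below it) of 12 genes in the 3 traffic noise libraries (red, left) and the 3 control libraries (dark, right), with symbol shape giving the replicate number and bars the mean and SD. CAB1, LHCB5 and PSBO2 have no overlap between the groups, and control replicate 3 (dark triangle) is the highest library for LHCA2, LHCA4, LHCB6, PSAG, PSBO1, PSBR, PSBTN and CAB2.

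Motifs known from light- and clock-regulated promoters were counted in the 250 bases before each start, on both strands, for the 39 genes and for 27443 annotated promoters of the same length. The G-box CACGTG, bound by bZIP and PIF factors, occurred in 10 of the 39 (25.6%), beside 6.49% of all promoters. The I-box core GATAAG was in 10 (25.6%), beside 12.3%, and CCAATC, a motif of GLK targets, was in 10 (25.6%), beside 10.2%. AAAAATCT or AACAATCT, the binding site of the clock factor CCA1, was in 5 (12.8%), beside 8.38%, and TATAAA in 16 (41.0%), beside 47.3%. CCAATC was present in CAB1, LHCB2.1, LHCB2.2, LHCB2.3, LHCB4.1, LHCB4.2, LHCA1, LHCA3, LHCA4 and PSBQ-2, all but the last of which encode antenna proteins. LHCB5, PSAD-2 and PSBO2 held none of the G-box, CCAATC and CCA1 motifs, whereas CAB1 held CCAATC. Many others of the 39 genes also lacked them, among them LHCB3, PSBR, PSBO1 and PSAG. A link between motifs and fold changes was not tested. No motif contains another, and these are matches of letters in a window, not sites shown to be bound.

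Genes of connected processes gave 0 calls in the edgeR test adjusted over all rows. For 13 tested antenna and photosystem genes outside the naming rule, 6 log2 fold changes were positive and 7 negative, with a median of -0.05, and 1 gene in each direction had an unadjusted p under 0.05, beside 3.48% of all rows higher and 3.98% lower. Without control replicate 3 the median was 0.13. The smallest p was that of PPL1, a PsbP-like protein of photosystem II repair, which had 30.7, 39.4 and 41.0 CPM in traffic noise and 102, 46.7 and 104 CPM in control. It was lower in every traffic noise library, with a log2 fold change of -1.19 ± 0.33 and an adjusted p of 0.493. Of 13 nuclear genes of thylakoid electron transport and ATP synthase, 6 were positive and 7 negative, and FD1, a ferredoxin, had the smallest p (-0.76 ± 0.35, adjusted p = 0.689), with a fold change of -0.35 without control replicate 3.

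Of 18 Calvin-Benson cycle genes, 7 were positive and 11 negative, with a median of -0.25, and 1 was higher and 2 lower at an unadjusted p under 0.05, beside 3.48% and 3.98% of all rows. Without control replicate 3 the median was 0.01. GAPA, a subunit of chloroplast glyceraldehyde-3-phosphate dehydrogenase, had 808, 740.0 and 431 CPM in traffic noise and 254, 415 and 226 CPM in control, without overlap. Its log2 fold change was 1.15 ± 0.30 (adjusted p = 0.480 in edgeR). Of 20 chlorophyll synthesis genes, 6 were positive and 14 negative, with a median of -0.30, and 0 were higher and 4 lower at an unadjusted p under 0.05, beside the same 3.48% and 3.98%. Without control replicate 3 the median was -0.26. HEMC, porphobilinogen deaminase, had 73.4, 78.1 and 61.4 CPM in traffic noise and 134, 82.6 and 196 CPM in control (-0.95 ± 0.31, adjusted p = 0.499), and its fold change without control replicate 3 was -0.61. PORA, the protochlorophyllide reductase of dark-grown seedlings, had 131, 144 and 52.6 CPM in traffic noise and 185, 109.9 and 97.5 CPM in control.

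Regulators of antenna genes and antenna assembly factors divided evenly, with 13 positive and 13 negative log2 fold changes among 26. The smallest p belonged to CAO, the locus of the signal recognition particle protein cpSRP43 that delivers antenna proteins to the membrane (-1.01 ± 0.45, adjusted p = 0.665), whose fold change without control replicate 3 was -0.24. GLK1, listed as GPRI1, had 9.17, 9.12 and 14.8 CPM in traffic noise and 15.2, 12.5 and 11.2 CPM in control, and GLK2 had 9.81, 12.2 and 17.4 CPM in traffic noise and 13.1, 16.5 and 2.48 CPM in control. HY5, a bZIP activator of light-induced genes, had 13.0, 6.36 and 4.35 CPM in traffic noise and 11.8, 6.45 and 18.4 CPM in control. CCA1 had 6.41, 5.86 and 5.77 CPM in traffic noise and 1.08, 4.70 and 0 CPM in control, where 0 counts allow up to 0.171 CPM, and its edgeR adjusted p was 0.930. Of these, control replicate 3 had the lowest GLK2 and CCA1 levels and the highest HY5 level.

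Of 19 tested plastid-encoded photosystem genes, 6 had a positive and 13 a negative fitted change, and the median log2 fold change was -0.25. Without control replicate 3 their median was -0.49, while that of the nuclear genes was 0.52. The median does not stand for their total. All 20 listed plastid genes summed to 2955, 2413 and 2178 CPM in traffic noise and 1639, 2963 and 1672 CPM in control, and the groups overlapped. The smallest p was that of psbA, the D1 reaction-centre protein, with 90.4, 46.5 and 30.8 CPM in traffic noise and 98.6, 102 and 96.0 CPM in control (-0.82 ± 0.35, adjusted p = 0.651 in edgeR). Plastid transcripts mostly lack the stable poly(A) tails that the kit primes on, so these counts may reflect capture as well as level. These cannot be told apart here.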

How the data were processed

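RNA of 6 whole-seedling samples was made into 3′-end libraries with the Lexogen QuantSeq kit, per the labels' protocols. The submitters' processing notes name Bowtie2, bedtools and TAIR10, without versions or roles. The authors deposited raw counts per gene symbol for each sample, 33139 rows per table. Unnamed rows, 218 in all with 0.0431% to 0.0886% of the counts, were excluded from totals and tests. Of 32921 named rows, 32488, including all 39 photosystem and antenna genes, could be tied to 1 locus of the RefSeq TAIR10.1 annotation, which served for names, promoters, transcript ends and overlaps. The tables hold no coordinates.

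Groups came from sample titles. Rows were kept by edgeR's filterByExpr (19112), scaled by TMM (factors 0.981 to 1.03) and tested over all 6 samples with edgeR's robust quasi-likelihood F test, 2-sided, adjusted by Benjamini-Hochberg over all rows at 0.05. SE was obtained by dividing the absolute log2 fold change by the square root of F. The common biological coefficient of variation was 0.757. A floor of 3 counts is 0.144 to 0.171 CPM. DESeq2, limma-voom, other scalings and filters, single left-out libraries and a replicate block were alternatives. The procedure was also run on simulated data. The outcome of that run is not given here, so the absence of calls does not show that the genes were unchanged. Software was R 4.3.3, edgeR 4.0.16, limma 3.58.1, DESeq2 1.42.0, Python 3.11.15, pandas 2.3.3, matplotlib 3.10.9 and Biopython 1.88.

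Per-library values were set to be given, within each role, for the gene with the highest mean, the one with the smallest p and those whose groups did not overlap, for the smallest p of each connected list, and for GLK1, GLK2, HY5, CCA1 and PORA. Values of other genes of the group, and of LHB1B1 and LHB1B2, were added after they were seen. The genes and lists were chosen with earlier results of these data known. The listed name CP29 was dropped because that symbol here belongs to a plastid RNA-binding protein.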

Additional observations from a re-analysis of the deposited data

How the results depend on the processing

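The main edgeR fit called 0 rows higher and 2 lower, and 0 of the 38 genes. Calls over all rows moved to 1 higher and 5 lower without a filter on low counts, 4 lower at a mean of at least 500 counts, 4 higher and 10 lower in limma-voom, and 84 higher and 127 lower in DESeq2, which called 1 of the genes, CAB1. DESeq2 on all rows with a count, chosen after seeing the data, gave 73 higher and 113 lower and called 0 of the genes. Leaving out single libraries gave 0 to 18 higher and 0 to 13 lower rows, and 0 of the genes called. The fewest positive fold changes were 10 of 38, without control replicate 1 (beside 55.5% of all rows). The most were 38, without control replicate 3 (beside 50.6%). Over all fits with a library left out, the median log2 fold change was -0.27 to 0.52. The difference in share of counts was -0.220 to 0.421 percentage points, against 0.0295 with all libraries. Over the same fits the log2 fold change ranged from -0.21 to 0.73 for LHCB6, -0.043 to 0.72 for LHCA4, -0.35 to 0.30 for PSAG, -0.22 to 0.24 for PSBR, -0.79 to 0.25 for PSBTN and -0.46 to 0.39 for PSBO1. Those of CAB1, LHCB5, LHCA2, PSAD-2 and PSBO2 stayed positive under each of the alternatives run for them. These genes had been chosen in the same libraries for the smallest p of their role or for groups without overlap. Where the groups did not overlap (CAB1, LHCB5 and PSBO2), leaving out a library could hardly reverse the sign. The stable sign was thus largely fixed by the choice of genes. The cause of the changes between fits was not tested. Over all tested rows, same-numbered samples did not deviate together (correlations of -0.01, 0.01 and 0.02), and the numbers were not taken to pair samples. Among the 38 genes, replicate 1 was the lowest of its group for 30 in traffic noise (beside 34.5% of all rows) and 34 in control (beside 25.1%). Replicate 3 was the highest for 25 in traffic noise (beside 35.2%) and 32 in control (beside 32.1%). Genes that vary together across libraries are not independent of one another, so their number does not show that samples were paired. With the replicate block 0 rows were called lower, and the median of the genes was 0.14, beside 0.15 for all rows. PSBO2 was too low to be tested at a mean of 500 counts. PSBP-2, with counts in 1 library, was below what this depth allows to be tested.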
